A study of Mus musculus with 24 samples.

Results

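The lymphocytic leukaemia line L-1210 was compared with mouse bone marrow cells, CT-BM, across 584 microRNA (miRNA) assays, with 3 replicates a group. The members are all miRNA assays of card A (375) and card B (209), 517 of them named for mouse and 67 for rat, read from the rows titled L-1210 and CT-BM, which make up 12 of the 24 GEO samples because each replicate was run on both cards. CT-BM is labelled as primary cells, washed out of the femur and tibia of mice whose strain and age the labels do not give, and no treatment is stated for either group. The growth protocol attached to CT-BM describes single round cells kept in suspension culture, and the series title calls these cells stem cells, so whether fresh whole marrow or a cultured fraction was measured is not known. L-1210 is labelled as a cancer cell line and its protocol describes round, lymphoblast-like cells in suspension with horse serum, collected at passage 3 in the same number as the marrow cells. It is 1 line, and its replicates carry no word on separate cultures, nor those of CT-BM on separate mice, so p-values cover only the scatter among these samples, and that scatter may be technical. The same series holds M1, a myeloid leukaemia line in suspension, and PYS, an adherent teratocarcinoma line, which enter here only where L-1210 is set against them.

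A miRNA is a short RNA cut from a hairpin precursor. Loaded into an Argonaute protein, it pairs with messenger RNAs mainly through its seed, the bases 2 to 8 from its 5′ end, and lowers the output of those messengers, so miRNAs with the same seed can act on overlapping targets. Blood cells carry lineage-linked miRNAs: miR-223 is abundant in granulocytes, miR-150 and miR-342 in mature lymphocytes, miR-451 and miR-486 in the red cell lineage, and members of the miR-99, miR-100 and miR-125 families in stem and progenitor cells. Quantitative reverse-transcription PCR reports each assay as a threshold cycle (Ct), the cycle at which fluorescence crosses a set line. The Ct falls by about 1 for each doubling of template, so a high Ct means a low level.

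These sequences are the mature miRNAs on which the results turn, from RefSeq with build GRCm38.p6, written 5′ to 3′ with the seed in capitals. The first set holds lineage-linked miRNAs of blood, all of which fell in L-1210.
miR-223: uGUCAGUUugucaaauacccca
miR-342-3p: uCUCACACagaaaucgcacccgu
miR-451: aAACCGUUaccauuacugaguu
The next sets are families with a common seed whose members all fell. They are shown because, by the mouse-named assays and the main scaling described below, a whole seed group was then lower at once. The sets are miR-125 with miR-351, miR-99 with miR-100, miR-221 with miR-222, and miR-15a with miR-16 and miR-195. In the last group the calls of miR-15a, and of miR-15b and miR-322 (not printed), did not hold under every scaling.
miR-125a-5p: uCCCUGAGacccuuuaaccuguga
miR-125b-5p: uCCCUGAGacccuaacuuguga
miR-351: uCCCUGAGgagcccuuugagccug
miR-99a: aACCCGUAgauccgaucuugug
miR-99b: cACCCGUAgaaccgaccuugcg
miR-100: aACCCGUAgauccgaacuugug
miR-221: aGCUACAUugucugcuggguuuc
miR-222: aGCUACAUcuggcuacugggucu
miR-15a: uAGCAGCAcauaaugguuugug
miR-16: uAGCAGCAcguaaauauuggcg
miR-195: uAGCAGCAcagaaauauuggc
The following sets share a seed but parted in the data, with 1 member called and the other called the opposite way or not called: miR-193 with miR-193b, miR-148a with miR-148b, miR-103 with miR-107, and let-7a with its closest relatives.
miR-193: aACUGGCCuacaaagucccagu
miR-193b: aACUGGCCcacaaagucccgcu
miR-148a: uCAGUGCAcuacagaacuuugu
miR-148b: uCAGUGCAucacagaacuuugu
miR-103: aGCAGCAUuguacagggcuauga
miR-107: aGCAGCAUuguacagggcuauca
let-7a: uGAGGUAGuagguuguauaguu
let-7c: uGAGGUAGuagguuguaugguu
let-7e: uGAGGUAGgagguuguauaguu
let-7f: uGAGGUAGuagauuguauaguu
The last set was higher in L-1210: both arms of the miR-9 hairpin, the Hox-cluster pair miR-10a and miR-10b, and the pair miR-500 and miR-501-3p, which also share a seed.
miR-9: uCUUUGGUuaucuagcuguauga
miR-9*: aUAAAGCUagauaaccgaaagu
miR-10a: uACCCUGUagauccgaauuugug
miR-10b: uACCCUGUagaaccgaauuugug
miR-500: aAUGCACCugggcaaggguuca
miR-501-3p: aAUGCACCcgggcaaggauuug
Of the 517 mouse-named assays, 384 matched a mature sequence, 234 of them among the 308 tested. MiR-150, miR-145, miR-486, miR-467a and miR-297a* had no entry in the table used here.

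For CT-BM and L-1210 the deposited table held 4478 wells, of which 2158 did not amplify, and 367 to 379 of the 384 wells of a card were present per run. Wells over Ct 35 (7 wells) and wells that did not amplify were placed at 35 and taken as not detected. The median SD between repeat wells of an assay was 0.109 cycles. The share of assays detected was 51.7% ± 0.852 (SD, n = 3) in CT-BM and 48.6% ± 0.748 in L-1210, and every CT-BM replicate was above every L-1210 replicate (exact two-sided permutation test, p = 0.1, the smallest that 3 against 3 allows). Each level is the negative delta Ct, that is, the mean Ct of 3 control RNAs (snoRNA202, snoRNA135 and MammU6) of that card minus the Ct of the assay, on a log2 scale. These controls did not move together. On card A snoRNA202 came 2.64 cycles earlier in L-1210 and snoRNA135 1.11 cycles earlier, whereas MammU6 came 0.740 cycles later, so the choice of control shifts all 333 tested assays at once. MammU6 alone raised the median log2 change by 1.87 and snoRNA202 alone lowered it by 1.65. For that reason each call was repeated under 8 scalings: the 3 controls together, each control alone, the mean of commonly detected assays, quantile normalization, snoRNA135 with snoRNA202, and the 3 controls with U87. A change described as held under every scaling was called in the same direction in all 8. Where a family is given with a range, the range covers the 6 scalings that leave out the last pair.

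Of the 333 assays detected in every replicate of at least 1 of the groups, 228 were called (68.5%), 75 higher (22.5%) and 153 lower (45.9%) in L-1210, by limma at a Benjamini-Hochberg adjusted p under 0.05 and a fold of at least 2. The median log2 change of all tested assays was -0.82. The levels of the groups did not overlap for 264 assays (79.3%). The tested assays include those detected in 1 group alone, for which the limit helps to set this gap. Under every scaling 128 assays kept 1 direction (38.4%), 42 higher (12.6%) and 86 lower (25.8%), and 86 assays were called in both directions under different scalings. Detection alone separated part of the assays: 48 were measured in every CT-BM replicate and in no L-1210 replicate, 31 the other way round, and 251 in every replicate of both. Among the 251, changes of at least 100-fold were seen for 2 assays that were higher and 15 that were lower. Where a group had no detected replicate, the fold is a lower bound fixed by the limit of 35 cycles, given here as "at least". Such an assay entered the test through the group that detected it, and its other group holds only the limit, so its call says no more than detected against not detected, also within the counts of lists below. The control RNA Y1 had Ct 26.5, 26.6 and 26.7 in CT-BM on card A. On card B it was not detected in any CT-BM replicate, while L-1210 had Ct 22.3, 21.2 and 21.7 there. Whether other assays lacked a signal because the assay failed rather than because the RNA was absent was not tested.

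**Figure D1:**
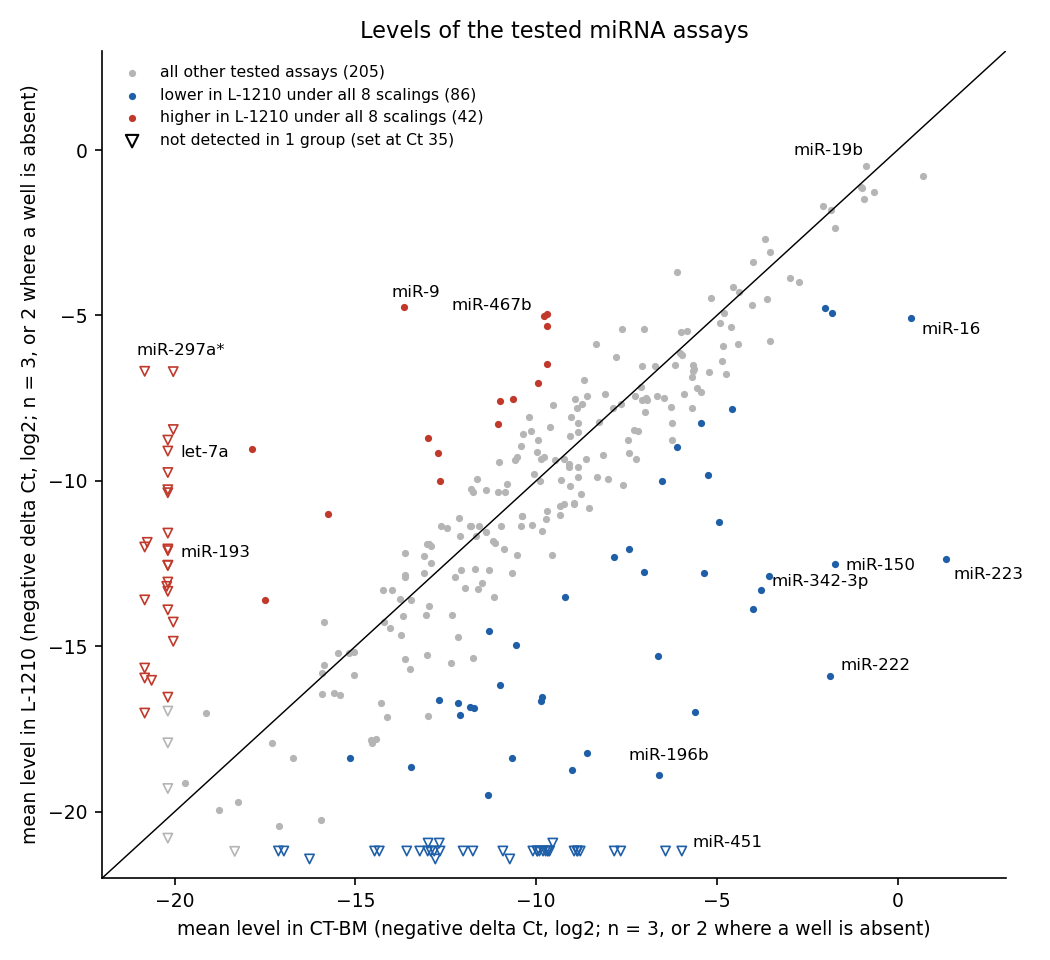
Mean level of each of the 333 tested assays in CT-BM (x axis) and L-1210 (y axis), both as negative delta Ct on a log2 scale, n = 3 replicates or 2 where a well is absent. Red and blue points were higher (42) or lower (86) in L-1210 under all 8 scalings, triangles are assays with no detected replicate in 1 group, and the line marks equal levels.

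The labels of both groups were set against marker miRNAs first. MiR-142-3p, which is found across blood cells, had Ct 17.3, 17.7 and 17.6 in CT-BM and 18.9, 17.2 and 17.2 in L-1210, and L-1210 was 14.12 log2 units above PYS (limma, adjusted p = 2.08e-11). Its level in L-1210 was 1.27 log2 units under that of CT-BM (adjusted p = 0.0484), a call that turned to 0.47 log2 units higher, not called, with MammU6 alone. Of the lymphocyte markers, miR-150, miR-342-3p, miR-181a and miR-155 were detected in every L-1210 replicate, the first 3 below CT-BM and miR-155 above it. Markers of other cells were present in CT-BM. Both erythroid assays, miR-451 and miR-486, were detected there (log2 of their summed level -5.96 to -5.80), and neither was detected in L-1210. Of 7 stromal assays 6 were detected in CT-BM (summed level -5.91 to -5.41), and of these miR-143, miR-145 and miR-214 were at the limit in L-1210 (summed level -10.07 to -9.44). MiR-199a-5p was detected in neither group. Of 7 muscle assays 3 were detected in CT-BM (summed level -4.39 to -3.80) and 2 in L-1210 (-19.66 to -13.55, the lowest from a replicate with no miR-133a well), where miR-1 was at the limit. The part that such cells in the marrow preparation played in the changes was not tested. In bulk RNA, fewer cells of a type and less miRNA per cell cannot be told apart.

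The granulocyte and lymphocyte miRNAs were among the largest measured decreases. MiR-223, which restrains granulocyte production and activation, had Ct 13.1, 13.8 and 13.5 in CT-BM, the highest level of any assay there, and Ct 25.6, 26.9 and 26.0 in L-1210. The groups lay far apart, a 13101-fold lower level in L-1210 (log2 change -13.68, SE 0.28, limma adjusted p = 2.71e-13). MiR-150, which targets the transcription factor Myb in lymphocytes, had Ct 16.1, 16.9 and 16.7 in CT-BM and 26.0, 26.8 and 26.2 in L-1210. Its level was 1750-fold lower (log2 change -10.77, SE 0.23, limma adjusted p = 2.71e-13). MiR-342-3p, made from an intron of Evl, had Ct 18.2, 18.9 and 18.7 against 26.6, 28.0 and 26.7, which is 725-fold lower (log2 change -9.50, SE 0.25). In both assays every L-1210 replicate was below every CT-BM replicate. The miR-181 members, which are linked to early lymphocyte development, fell less: miR-181a by 2.02 and miR-181c by 2.67 on the log2 scale, calls lost with MammU6 alone (-0.28 and -0.92). The 4 tested assays of the lymphocyte list, miR-150, miR-342-3p, miR-181a and miR-181c, were all called lower. Their median log2 change was -6.08, beside 45.9% lower and -0.82 over all tested, and miR-150 and miR-342-3p were lower under every scaling. MiR-155, named above as a lymphocyte marker, is not in this list but among the immune-signalling miRNAs, and it was higher (log2 change 2.39). MiR-342-5p was in no replicate of either group.

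The erythroid miRNAs were detected in marrow alone of the groups compared. MiR-451, which is cut by Argonaute 2 rather than Dicer and is among the most abundant miRNAs of red cell precursors, had Ct 20.5, 21.0 and 20.9 in CT-BM and was not detected in L-1210, at least 38139-fold lower. MiR-486 had Ct 24.5, 24.8 and 25.1 in CT-BM and was not detected in L-1210, at least 2394-fold lower. Both calls held under every scaling.

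**Figure D2:**
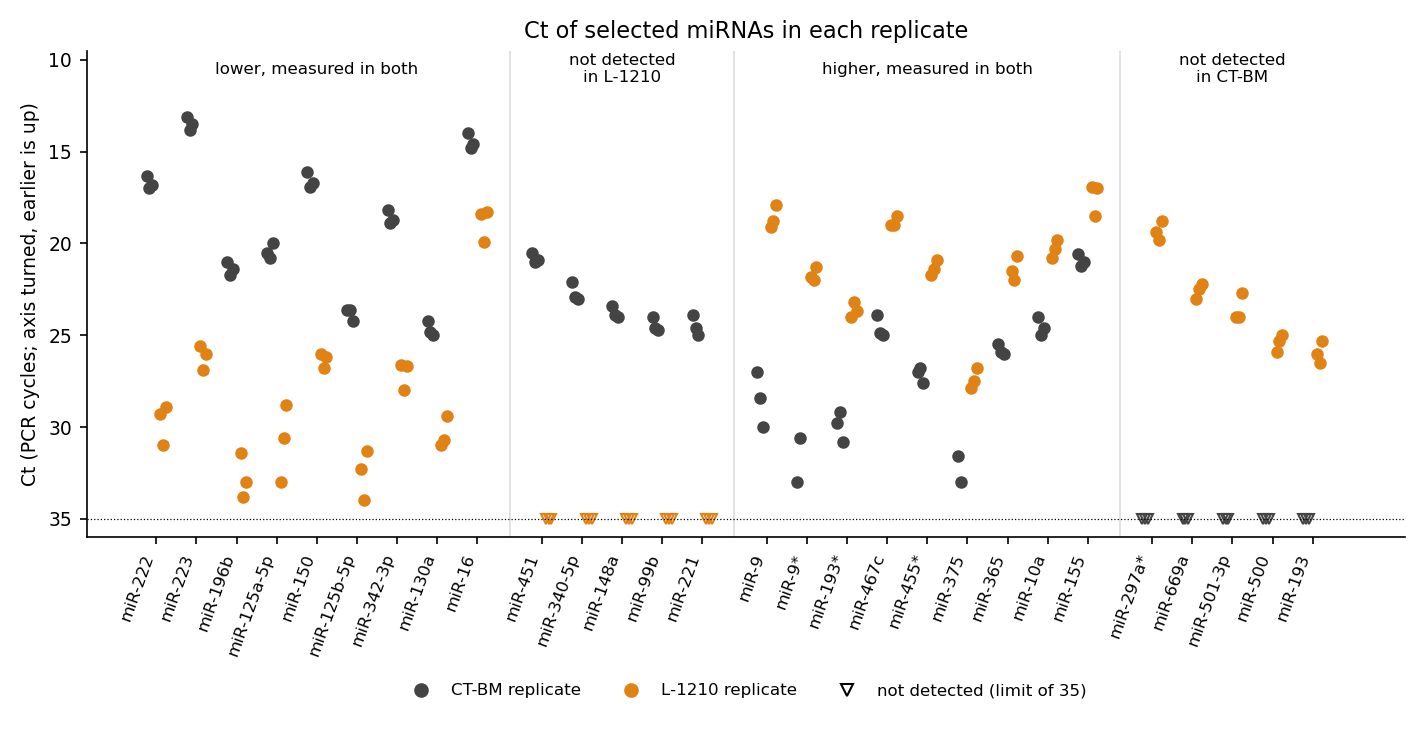
Threshold cycle of each replicate of CT-BM and L-1210 for assays named in the text, with not detected wells drawn at the limit of 35 and the axis turned so that higher levels stand higher. MiR-223 lies at Ct 13.1 to 13.8 in CT-BM and 25.6 to 26.9 in L-1210, and miR-9 at 27.0 to 30.0 and 17.9 to 19.1.

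Immune-signalling miRNAs moved in both directions. MiR-155, made from the Bic transcript and induced in activated lymphocytes, had Ct 20.6, 21.2 and 21.0 in CT-BM and 16.9, 18.5 and 17.0 in L-1210. Its level was 5.25-fold higher in L-1210 (log2 change 2.39, SE 0.30, limma adjusted p = 9.36e-06), and the groups did not overlap. With snoRNA202 alone the call was lost (log2 change 0.76). MiR-146a, a feedback inhibitor of innate signalling, fell by 2.78 on the log2 scale (Ct 16.5, 17.0 and 17.0 against 18.2, 19.6 and 18.0), and this held under every scaling. MiR-146b fell by 1.45, with a value of 0.29 when MammU6 alone was used. MiR-21, often high in tumours, was not called (log2 change -0.13), although its other arm, miR-21*, was 15.0-fold lower. Over 6 scalings, 0 to 2 of the 4 listed assays were called higher and 1 to 3 lower, beside 42 to 164 higher and 93 to 241 lower of all 333 tested. The median log2 change of the list was -0.79, close to the -0.82 of all tested.

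All 7 tested assays of the stem and progenitor list were called lower, with a median log2 change of -9.75, beside 45.9% and -0.82 over all tested. Under every scaling 6 of the 7 were lower, beside 25.8% of all, and miR-126-5p was not called with MammU6 alone (-0.26). MiR-125a-5p had Ct 20.5, 20.8 and 20.0 in CT-BM and 33.0, 30.6 and 28.8 in L-1210, 2643-fold lower (log2 change -11.37, SE 0.82). The L-1210 replicates of this assay were far apart, at levels of -19.16, -16.30 and -15.49, yet each was below every CT-BM replicate. MiR-125b-5p, which holds back differentiation of blood progenitors, had Ct 23.6, 23.6 and 24.2 against 32.3, 34.0 and 31.3, 861-fold lower (log2 change -9.75, SE 0.40). MiR-351, the rodent relative with the same seed, had Ct 24.3, 24.2 and 25.0 in CT-BM and was not detected in L-1210, at least 2934-fold lower. By the mouse-named assays all members of this seed group were therefore lower. The rat-named miR-351 assay was detected in L-1210, as given below, and was called lower under 5 of 8 scalings.

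MiR-99a and miR-99b were detected in CT-BM at Ct 24.8, 25.0 and 24.9 and at Ct 24.0, 24.6 and 24.7. Neither was detected in L-1210, at least 2193-fold and at least 3025-fold lower. MiR-100, which differs from miR-99a at 1 position in the sequences shown, was still measured in L-1210. It had Ct 22.2, 23.0 and 22.8 in CT-BM and 26.9 and 25.3 in L-1210, where the well of the first replicate is absent and was dropped from the fit, a 21.8-fold lower level (log2 change -4.45, SE 0.32). MiR-126-3p and miR-126-5p, which are found in stem cells and endothelium, fell by 3.13 and 2.00 on the log2 scale. Both stayed well detected in L-1210, miR-126-3p at Ct 18.5, 19.5 and 18.2.

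MiR-99 and miR-125 genes sit beside let-7 genes, and the neighbours did not change alike. At chr17:17830194-17830879, within the span of Spaca6, miR-99b and miR-125a-5p were lower while let-7e between them was not called (log2 change 0.19). At chr16:77598936-77599750, miR-99a was lower and let-7c was not called (0.85), but let-7c has another copy, on chromosome 15. The arm that is specific to the chromosome 16 copy, let-7c-1*, had Ct 29.3, 28.8 and 29.9 in CT-BM and was not detected in L-1210, at least 149-fold lower. MiR-99b* fell by 5.16, so at both loci more than 1 product was lower.

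The Hox-cluster miRNAs parted. MiR-196b, which lies in the HoxA cluster and targets Hox messengers, had Ct 21.0, 21.7 and 21.4 in CT-BM and 31.4, 33.8 and 33.0 in L-1210. That is 5048-fold lower (log2 change -12.30, SE 0.46, limma adjusted p = 2.51e-11). MiR-10a, within the span of Hoxb3, had Ct 24.0, 25.0 and 24.6 against 20.8, 20.3 and 19.8, 9.40-fold higher (log2 change 3.23, SE 0.27, limma adjusted p = 1.21e-07). MiR-10b, which differs from miR-10a at 1 position and lies by Hoxd4, was not detected in CT-BM and had Ct 28.0, 27.2 and 25.4 in L-1210, at least 140-fold higher. Each of these 3 changes held under every scaling. MiR-10b was also not detected in M1 or PYS.

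MiR-221 and miR-222 lie within 678 bases of each other at chrX:19146294-19146971, share a seed, and are known to target the Kit receptor and the cell cycle inhibitor p27. MiR-222 had Ct 16.3, 17.0 and 16.8 in CT-BM and 29.3, 31.0 and 28.9 in L-1210, the largest decrease measured in both groups at 16904-fold (log2 change -14.05, SE 0.36, limma adjusted p = 7.09e-13). MiR-221 had Ct 23.9, 24.6 and 25.0 in CT-BM and was not detected in L-1210, at least 2907-fold lower. Both were lower under every scaling.

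All 6 tested members of the family of miR-15 and miR-16, which limit cyclins and Bcl2, were called lower, with a median log2 change of -3.57, beside 45.9% and -0.82 over all tested. MiR-16 had Ct 14.0, 14.8 and 14.6 in CT-BM and 18.4, 19.9 and 18.3 in L-1210, 42.9-fold lower (log2 change -5.42, SE 0.26, limma adjusted p = 4.06e-10). MiR-195 fell 24.2-fold, from Ct 19.8, 20.1 and 20.2 to 24.0, 23.9 and 23.1, and miR-497, its cluster neighbour, was not detected in L-1210 in the 2 replicates with a well. The others fell less: miR-15a by 2.53, miR-15b by 1.45 and miR-322 by 1.04 on the log2 scale. MiR-16, miR-195 and miR-497 were lower under every scaling, whereas miR-15a, miR-15b and miR-322 were at -0.79, 0.29 and 0.70 with MammU6 alone and not called. MiR-16 has 2 genes, beside miR-15a in Dleu2 on chromosome 14 and beside miR-15b in Smc4 on chromosome 3, and it fell by more than either neighbour. On the X chromosome, chrX:53048154-53054349 holds miR-351, miR-503 and miR-322 with miR-542 and miR-450a. There miR-351 and miR-503 (53.3-fold lower) held under every scaling, and miR-542-3p, miR-542-5p and miR-450a-5p were not called.

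The cluster that runs from miR-17 to miR-92a is known as an oncogenic cluster in lymphoid tumours. At its main locus, chr14:115043671-115044506, the 9 tested assays with a matched sequence were not called on this scale, with log2 changes from -0.63 to 0.60. Among its star arms without a matched sequence, miR-19a* was called higher (log2 change 2.12), under 7 of 8 scalings. MiR-92a* was not detected in CT-BM and was called higher under every scaling (log2 change of at least 4.61). MiR-19b had Ct 15.4, 15.7 and 15.9 in CT-BM and 14.5, 14.3 and 14.0 in L-1210, the highest level of any assay in L-1210, and a log2 change of 0.40 (SE 0.26, limma adjusted p = 0.172). The list of the cluster and its paralogs leaves out these star arms. Of its 12 tested members, miR-18b was higher, miR-93 was lower by 1.11 on the log2 scale and 10 were not called. These values follow the scaling: over 6 scalings, 1 to 10 of the 12 were called higher and 0 to 11 lower. Of all 333 tested, 42 to 164 were called higher and 93 to 241 lower. MiR-18b held under every scaling, being undetected in CT-BM (in the 2 replicates with a well) and at Ct 29.0, 28.0 and 27.2 in L-1210, at least 54.5-fold higher.

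Within the let-7 family, which restrains Ras and Myc, let-7a stood apart. It was in no CT-BM replicate and had Ct 23.8 and 22.0 in the 2 L-1210 replicates with a well, at least 2183-fold higher. The other 7 tested members were not called, from -0.61 for let-7g to 1.60 for let-7b. Over 6 scalings, 1 to 8 of the 8 were called higher and 0 to 4 lower, beside 42 to 164 higher and 93 to 241 lower of all 333 tested. Let-7a differs from let-7c, let-7e and let-7f at 1 position each, and these 3 were detected in CT-BM in every replicate with a well, let-7e at Ct 21.3, 21.7 and 21.5. The star arm let-7a* was detected in every CT-BM replicate, at Ct 26.9, 26.8 and 27.7, and was called 2.08-fold higher, as it was under 5 of 8 scalings. How far each assay separates such close relatives was not tested.

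**Figure D3:**
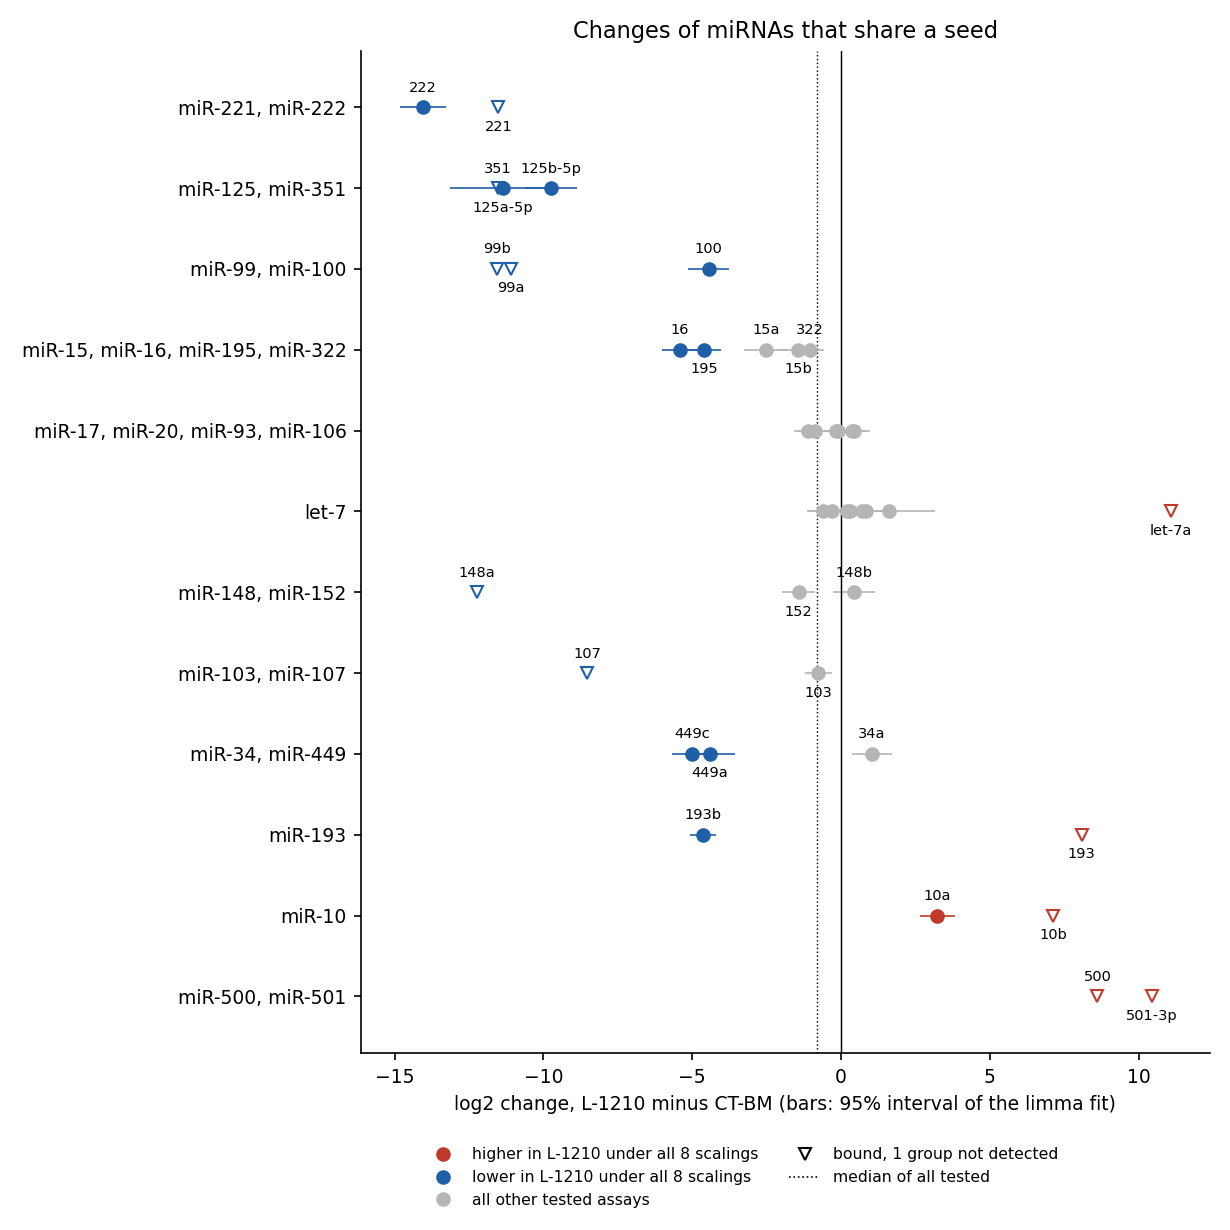
Log2 change, L-1210 minus CT-BM, of tested miRNAs grouped by seed, with the 95% interval of the limma fit (3 replicates a group, 2 where a well is absent), triangles for bounds, and a dotted line at the median of all tested assays, -0.82. The miR-221 and miR-125 groups lie wholly on the left, while miR-193 (8.08, a bound) and miR-193b (-4.64) lie on opposite sides of 0.

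Of 34 seed groups with at least 2 tested assays, 8 had all members called lower on the main scale. A further 2 had all members called higher and 5 had calls in both directions. Beside these counts, 45.9% of all tested assays were called lower and 22.5% higher. Not every such call held under every scaling. Those of miR-146b, miR-181a and miR-425 in the lower groups did not, nor those of miR-28, miR-34a and miR-200a in the split groups. MiR-193 and miR-193b, which differ at 3 positions, gave the widest split. MiR-193 was not detected in CT-BM and had Ct 26.0, 26.5 and 25.3 in L-1210, at least 270-fold higher, and its star arm miR-193* rose 27.4-fold. MiR-193b had Ct 21.9, 22.3 and 22.4 against 26.0, 26.1 and 25.5, 24.9-fold lower (log2 change -4.64, SE 0.20). MiR-365, which has a gene beside each of them, rose 10.6-fold, from Ct 25.5, 25.9 and 26.0 to 21.5, 22.0 and 20.7. All 4 calls held under every scaling.

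Other seed groups also held called and not called members, or calls in both directions. MiR-148a had Ct 23.4, 23.9 and 24.0 in CT-BM and was not detected in L-1210, at least 4829-fold lower, while miR-148b, which differs at 2 positions, was not called (log2 change 0.44). MiR-152, of the same seed, fell by 1.42, a call lost with MammU6 alone. MiR-107 had Ct 27.0, 27.4 and 28.0 and was not detected in L-1210, at least 370-fold lower. MiR-103, which differs from it at 1 position near the 3′ end, was not called (-0.76, Ct 23.3, 23.7 and 24.0 against 23.5, 23.9 and 22.8). MiR-130a fell 105-fold (Ct 24.2, 24.8 and 25.0 against 31.0, 30.7 and 29.4), and its relatives miR-130b, miR-301a and miR-301b were not called, at 0.97, -0.06 and -0.52. MiR-721, which shares the miR-130a seed, was 17.4-fold lower (Ct 27.0, 27.4 and 27.1 against 31.4 and 28.5 in the L-1210 replicates with a well), and was called lower under 7 of 8 scalings. In the miR-34 and miR-449 family, known p53 targets and ciliated-cell miRNAs, miR-449a and miR-449c fell by 4.40 and 5.00 under every scaling. MiR-34a rose by 1.04 on the main scale and was at -0.59 with snoRNA202 alone.

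The largest bound among the increases belonged to the Sfmbt2 locus, an intronic array of miR-297, miR-466, miR-467 and miR-669 genes that is imprinted and active in placenta. Of 18 assays on the cards, 12 were tested, 9 were called higher and 0 lower, with a median log2 change of 4.54, beside 22.5% higher and -0.82 over all tested. All 9 held under every scaling, beside 12.6% of all. MiR-297a* was not detected in CT-BM and had Ct 19.4, 19.8 and 18.8 in L-1210, at least 18052-fold higher. MiR-669a was likewise not detected in CT-BM and had Ct 23.0, 22.5 and 22.2 in L-1210, at least 2746-fold higher. MiR-467b was measured in both groups, at Ct 24.0, 24.8 and 24.8 and at 18.6, 19.4 and 18.3, 26.2-fold higher (log2 change 4.71, SE 0.25). MiR-467a and miR-467c rose 20.8-fold and 27.1-fold, with no overlap of the groups. The 3 assays not called were star or 3′ arms: miR-466d-3p, which was at Ct 13.9 to 14.3 in L-1210, miR-467a* and miR-467b*, at -0.54, -0.72 and -0.12. Members of this array have near-identical sequences and several gene copies, so each assay may read more than 1 of them.

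The X-linked cluster of miR-532, miR-362, miR-188, miR-500 and miR-501, within the span of Clcn5, had 6 tested assays, of which 5 were called higher and 0 lower (median log2 change 1.82), beside 22.5% higher over all tested. With snoRNA202 alone 2 were called higher and 1 lower (median 0.19). MiR-532-5p rose 4.61-fold, from Ct 22.0, 22.6 and 22.8 to 18.8, 19.8 and 19.1, a call lost with snoRNA202 alone (log2 change 0.57). MiR-500 and miR-501-3p were not detected in CT-BM and had Ct 25.9, 25.3 and 25.0 and Ct 24.0, 24.0 and 22.7 in L-1210, at least 391-fold and at least 1389-fold higher. The last pair held under every scaling, while miR-532-3p (1.40) and miR-362-3p (1.44) were at -0.24 and -0.19 with snoRNA202 alone. MiR-188-5p was not called (0.51).

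Several miRNAs best known from nervous tissue were higher. MiR-9, which is abundant in neural progenitors and has 3 genes, had Ct 27.0, 28.4 and 30.0 in CT-BM and 19.1, 18.8 and 17.9 in L-1210. It was the largest increase measured in both groups, 480-fold (log2 change 8.91, SE 0.54, limma adjusted p = 3.49e-09), with a wide spread in CT-BM (SD 1.32). The other arm, miR-9*, had Ct 33.0 and 30.6 in the CT-BM replicates with a well and 21.8, 22.0 and 21.3 in L-1210, 454-fold higher. MiR-124, the miRNA most specific to neurons, went the other way: Ct 25.2, 26.0 and 26.0 in CT-BM, not detected in L-1210, at least 1238-fold lower. Of 9 tested neural assays, 5 were called higher and 1 lower, 3 and 1 of them under every scaling. Over all tested assays the shares are 22.5% higher and 45.9% lower, and 12.6% and 25.8% under every scaling. The log2 of the summed level of the list was -8.19 to -7.12 in CT-BM and -4.39 to -3.91 in L-1210. MiR-375, a miRNA of endocrine pancreas, rose 15.1-fold, from Ct 31.6 and 33.0 in the replicates with a well to 27.9, 27.5 and 26.8.

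MiRNAs of stroma and muscle were lower. MiR-145, found in smooth muscle and fibroblasts, had Ct 21.0, 21.2 and 21.5 in CT-BM and was not detected in L-1210, at least 27954-fold lower. MiR-143, its cluster partner, was at Ct 24.3, 24.9 and 25.0 and not detected, at least 2495-fold lower. All 6 tested stromal assays were called lower (median log2 change -10.46, beside 45.9% lower and -0.82 over all tested), with the smallest fall for miR-152, 1.42 on the log2 scale, which was at 0.32 with MammU6 alone. MiR-133a of skeletal and heart muscle had Ct 18.3, 19.5 and 18.7 in CT-BM and 27.9 and 27.9 in the L-1210 replicates with a well, 934-fold lower. MiR-1 and miR-206 fell as well, so all 3 tested muscle assays were lower, and under every scaling.

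The epithelial list was mixed. MiR-203 and miR-205 were not detected in L-1210, and miR-200c and miR-141, which share a locus on chromosome 6, fell by 2.51 and 2.18. From the other miR-200 locus, on chromosome 4, miR-200a rose by 1.26 and miR-200b and miR-429 were not called. MiR-200c lost its call with MammU6 alone (-0.77), miR-200a was at -0.38 with snoRNA202 alone, and miR-141 was at 1.97 under quantile normalization. The log2 of the summed level was -6.40 to -6.03 in CT-BM and -5.99 to -5.81 in L-1210.

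From the imprinted Dlk1-Dio3 locus, 19 of 60 assays were tested, of which 16 were called lower and 0 higher (median log2 change -2.86, beside 45.9% lower and a median of -0.82 over all tested). At chr12:109585789-109595388, within the span of Rtl1, all 5 tested assays were lower, with log2 changes of -5.15 for miR-136 and -4.57 for miR-434-3p. MiR-136 had Ct 26.3, 26.8 and 26.5 in CT-BM and 31.0, 30.6 and 30.4 in L-1210. Among the tested assays of the locus, miR-337-3p and miR-380-5p were not detected in L-1210. Over 6 scalings, 6 to 18 of the 19 were called lower and 0 to 6 higher, beside 93 to 241 lower and 42 to 164 higher of all 333 tested. Under every scaling 4 of the 19 were lower, beside 25.8% of all tested, so on that count the locus did not stand out. MiR-127, miR-337-5p, miR-376a, miR-376c, miR-410 and miR-494 turned positive under quantile normalization.

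Some large changes belong to no list. MiR-340-5p, from an intron of Rnf130, had Ct 22.1, 22.9 and 23.0 in CT-BM and was not detected in L-1210, at least 10453-fold lower, and its other arm miR-340-3p was not detected either. MiR-296-5p and miR-204 were also not detected in L-1210, at least 5462-fold and at least 5183-fold lower. MiR-149 fell 79.7-fold and miR-592 fell 209-fold. MiR-324-3p was not detected in CT-BM (in the 2 replicates with a well) and had Ct 23.0, 22.0 and 21.8 in L-1210, at least 3076-fold higher. Both arms of miR-455, made within Col27a1, rose: miR-455* from Ct 27.0, 26.8 and 27.6 to 21.7, 21.4 and 20.9 (19.4-fold), and miR-455 at least 280-fold. Among rat-named assays, rno-miR-347 was at least 11874-fold lower and rno-miR-532-5p at least 10386-fold higher. The last assay was not detected in CT-BM, although the mouse-named miR-532-5p assay had Ct 22.0 to 22.8 there. Rno-miR-351 likewise differed from its mouse-named counterpart, with Ct 27.0, 26.5 and 26.0 in L-1210 where the mouse-named assay was at the limit.

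**Figure D4:**
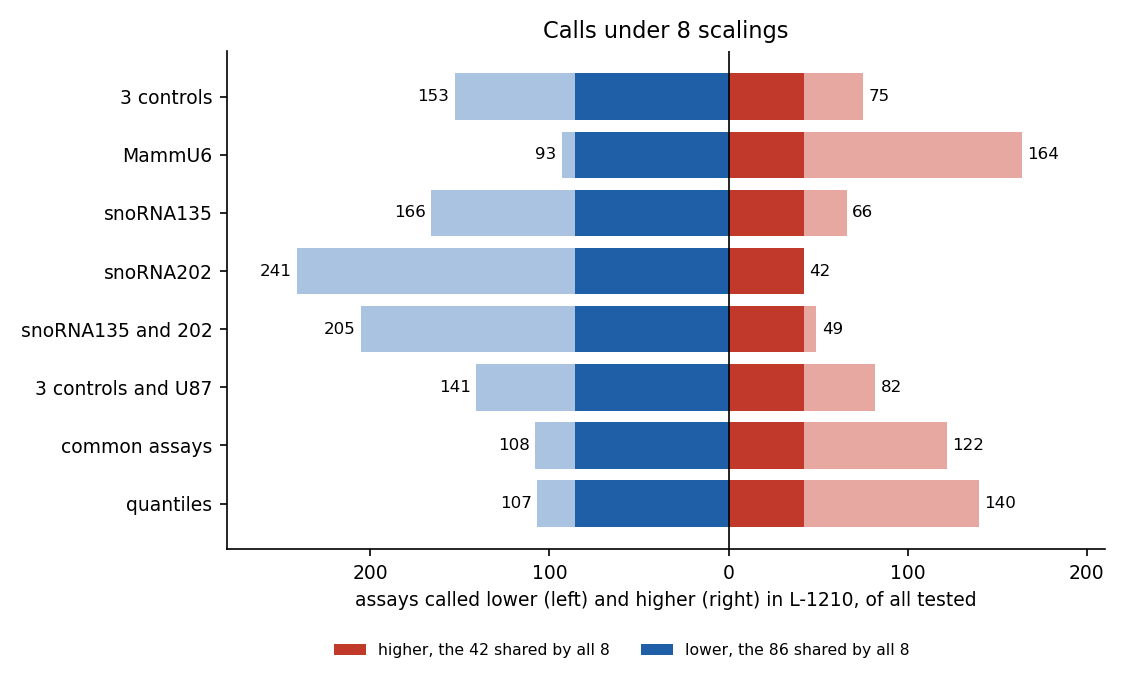
Number of the 333 tested assays called higher (red) or lower (blue) in L-1210 under each of 8 scalings, with the assays called that way under all 8 in the darker shade. The 3 controls give 75 higher and 153 lower, MammU6 alone 164 and 93, and snoRNA202 alone 42 and 241.

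The 2 arms of a hairpin can be compared within a replicate. Of 71 pairs with both arms tested, 11 had both arms called higher, 22 both lower, 22 had 1 arm called, 15 had neither and 1 had opposite calls. Among all tested assays, 22.5% were called higher and 45.9% lower. The pair counts include bounds, such as both arms of miR-340. They also include calls that did not hold under every scaling, such as both arms of miR-93. The ratio of the arms could be tested in 50 pairs, and it shifted in 22 (44.0%), 11 in each direction, by limma at the same thresholds. In miR-30a the main arm minus the star arm went from -1.13, -0.74 and -1.45 in CT-BM to 4.47, 5.79 and 5.66 in L-1210, an 85.2-fold shift (SE 0.35 on the log2 scale, adjusted p = 5.21e-09). The star arm miR-30a* fell by 7.44 and the main arm by 1.03, the second a call lost with MammU6 alone (0.72). MiR-218-2 had the next largest shift, 79.6-fold towards the star arm, with the main arm minus the star arm at 8.83, 7.98 and 8.76 in CT-BM and widely spread at 2.72, 4.05 and -0.14 in L-1210. For miR-467a the ratio moved 34.2-fold towards the main arm, for miR-467b 28.5-fold, and for miR-16 17.9-fold towards the star arm. Some main arms, such as miR-218, miR-16, miR-24 and miR-181a, come from 2 genes. Their ratio to the star arm of 1 gene is then not the ratio within a single hairpin. The star arm of the other miR-218 gene, miR-218-1*, was not detected in L-1210. Most pairs have their arms on different cards, each scaled to its own controls. Of the 10 pairs with both arms on 1 card, where the controls cancel, 2 shifted: miR-139 by 2.00 (SE 0.34, adjusted p = 0.000264) towards the 5p arm and miR-126 by 1.13 (SE 0.24, adjusted p = 0.00117) towards the 5p arm.

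**Figure D5:**
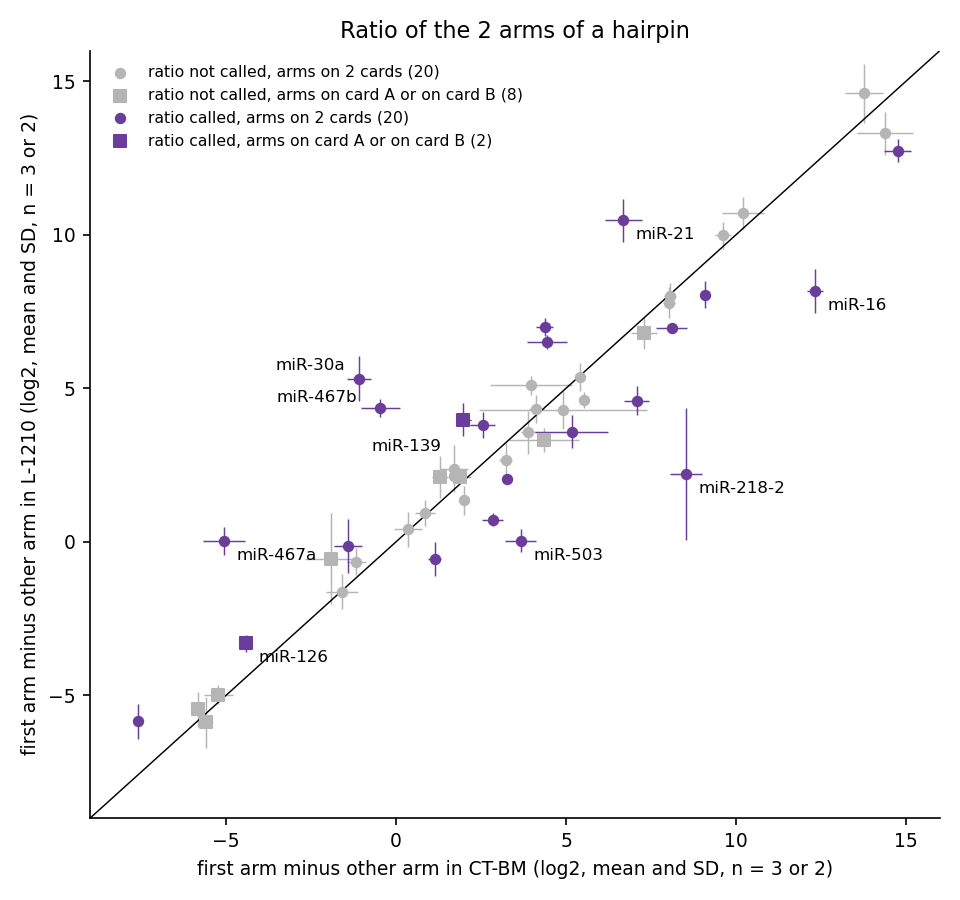
Difference between the level of the first named arm and the other arm in 50 arm pairs, in CT-BM (x axis) and L-1210 (y axis). Values are log2, mean and SD over 3 replicates or 2 where a well is absent. Purple marks the 22 pairs whose ratio shifted, squares mark pairs with both arms on 1 card, and miR-30a lies farthest above the line of equal ratios.

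Set against the other lines of the series, L-1210 differed from M1 in 172 of 306 tested assays (56.2%) and from PYS in 258 of 351 (73.5%) by the same fit. These comparisons share the L-1210 replicates with the comparison above. The log2 difference of L-1210 minus M1 was -10.13 for miR-223, -5.05 for miR-150, -14.24 for miR-222 and -0.02 for miR-155. MiR-467b was at the limit in both M1 and PYS. Of the 584 assays, 8 were detected in every L-1210 replicate with a well and in no replicate of the other 3 groups. They are miR-10b, miR-18b, miR-20b*, miR-92a*, miR-297a*, miR-297b-5p, miR-297c and miR-669a. In the reverse pattern, 9 assays were detected in every replicate with a well of the other 3 groups and in no L-1210 replicate.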

How the data were processed

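Total RNA was measured in L-1210, CT-BM, M1 and PYS, with 3 replicates a group. Per the labels, the authors reverse transcribed and preamplified it and ran it on TaqMan cards (A, B) in a 7900HT instrument with 40 PCR cycles. The deposited table gives the threshold cycle (Ct) of each well, not normalized to a control. Its thresholds and software are not given in the sources used here, and no read depth applies, so the number of replicates limits the precision.

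The table was read with Python 3.11.15 and pandas 2.3.3. Repeat wells were averaged, Ct over 35 or undetermined was set to 35, and absent wells were dropped. The negative delta Ct against MammU6, snoRNA135 and snoRNA202 of the same card entered limma 3.58.1 (R 4.3.3; means of 4 groups by lmFit, then eBayes; 12 replicates), with p adjusted over the 333 assays detected in every replicate of at least 1 of the groups. Shares and controls were compared with exact permutation tests, also in R.

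The comparison, the miRNA lists and the naming rule were chosen with earlier results of these data known. The rule named the 15 largest measured changes and 5 largest bounds in each direction, with the arms of their hairpins. It also named list members, called arm pairs, the 10 highest levels and 5 largest SDs of a group. Rat-named assays were named by the 3 largest changes in each direction. Assays outside it, such as miR-107, miR-721 and rno-miR-351, were named after their values were seen. Alternatives were other scalings, Ct limits, filters and fits, a replicate block, and each replicate left out. Scaling to snoRNA135 with snoRNA202, and adding U87, were chosen after seeing the data. The replicate numbers did not pair the samples.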

Additional observations from a re-analysis of the deposited data

Results flagged for a closer look

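In 10 of the 40 assays with the largest increases, decreases and bounds, M1 was called against CT-BM in the direction opposite to L-1210. To be flagged, an assay also had to be called between the lines in the same limma fit. The p-values below, given where both lines were measured, are therefore part of the selection and not a later test of it. MiR-196b was lower in L-1210 than in M1 (log2 difference -13.97, adjusted p = 5.71e-12), with changes against CT-BM of -12.30 in L-1210 and 1.66 in M1. MiR-10a was 9.20 log2 units higher in L-1210 than in M1 (adjusted p = 1.80e-12), with changes of 3.23 and -5.97, and miR-365 was 5.57 higher (adjusted p = 9.31e-11), with changes of 3.41 and -2.16.

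The other 7 were not detected in any M1 replicate, so the differences are lower bounds on the log2 scale, set by the limit of 35 cycles, and no p is given for them. They are 17.57 for miR-467b, 17.52 for miR-467c, 17.23 for miR-467a, 15.22 for miR-467e, 14.37 for miR-31*, 13.94 for miR-455* and 13.39 for miR-467d. Both changes were taken against the same CT-BM samples, and the difference between the lines does not use those samples.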

How the results depend on the processing

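Among the alternatives run, the scaling moved the count of higher calls most and the detection filter the count of lower calls. Against 75 higher and 153 lower, MammU6 alone gave 164 higher and 93 lower, snoRNA202 alone 42 and 241, the mean of common assays 122 higher, quantile normalization 140 higher, and snoRNA135 with snoRNA202 49 higher. Without a filter on detection 473 were called, 397 of them lower, since assays detected in no replicate then enter the test. Where all 6 replicates had to be detected, 149 were called, 46 higher. Of the 10 arm pairs on 1 card, 2 shifted, beside 22 of all 50. Leaving out each replicate gave 225 to 229 calls, 70 to 80 higher and 149 to 157 lower. Same-numbered replicates did not deviate together (correlations -0.07, 0.19 and -0.12), and the replicate block gave 229 calls against 228.

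With MammU6 alone the log2 change turned positive for miR-142-3p (0.47), miR-142-5p (0.17), miR-146b (0.29), miR-93 (0.64), miR-15b (0.29), miR-322 (0.70), miR-29c (0.51), miR-30a (0.72), miR-30d (0.57), miR-30e (0.09), miR-152 (0.32), miR-494 (0.15), miR-667 (0.72) and miR-673-5p (0.15). With snoRNA202 alone it turned negative for miR-34a (-0.59), miR-532-3p (-0.24), miR-362-3p (-0.19), miR-138 (-0.40), miR-200a (-0.38) and miR-31 (-0.09). With common assays miR-93, miR-322 and miR-30a were at 0.02, 0.09 and 0.10. Under quantile normalization the values were 0.18 for miR-142-3p, 0.64 for miR-29c, 1.75 for miR-127, 1.25 for miR-337-5p, 1.23 for miR-376a, 1.92 for miR-376c, 1.19 for miR-410, 0.57 for miR-494 and 1.97 for miR-141. With a Ct limit of 32, which is below or near its Ct in L-1210, miR-34c was at -0.73. The cause of the differences between the control RNAs was not tested.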
